A study of Mus musculus with 6 samples.

Results

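The Notch receptors, their ligands and the Hes and Hey genes that Notch signalling switches on were followed in cultured mouse neural stem cells before and after the start of differentiation. The group held 10 genes of the 29267 in the deposited tables, found by gene identifier from their symbols: the receptors Notch1, Notch2 and Notch3, the ligands Dll1, Dll3 and Jag1, and the targets Hes1, Hes5, Hey1 and Hey2. All 10 were found and all 10 passed the filter on low counts, Hey2 only through its counts in differentiated cells. RNA sequencing of 6 libraries covered 2 states at passage 8. The differentiated cells, called D2 after their label, had 3 libraries: 1 grown with naloxone, which blocks opioid receptors, 1 with DAMGO, which activates the mu opioid receptor, and 1 control. The undifferentiated cells, called NSC, had the same 3 conditions. All cells were of the OG2 strain, which carries a green fluorescent protein transgene under Pou5f1 regulatory sequence, a promoter active in pluripotent cells and germ cells.

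Each combination of state and ligand was 1 library, so the 3 ligand conditions of a state stood in for replicates when the states were compared. Whether separate cultures were used is not stated in the labels, so every p-value here reflects the spread among 6 libraries that may share a culture. Library totals ran from 8417074 expected counts (D2 with naloxone) to 13561237 (NSC with naloxone). The stem cell label was checked against 6 markers (Nes, Sox2, Pax6, Vim, Fabp7 and Prom1), all of which were detected in both states. Nes stood at 395 to 411 CPM (counts scaled to library size) in D2 and 1823 to 1855 CPM in NSC, and Sox2 at 551 to 632 CPM in D2 and 367 to 391 CPM in NSC. In edgeR's test 4 of the 6 were higher in D2 and 2, Nes and Vim, were lower, so the single genes did not share a direction. Their summed level was lower in D2 (5176 to 5530 CPM) than in NSC (6749 to 6867 CPM). In bulk RNA of this kind, fewer cells that express a gene and less RNA of it per cell cannot be told apart.

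Notch signalling passes between touching cells. A Delta or Jagged ligand on one cell pulls on a Notch receptor on its neighbour, proteases release the receptor's intracellular part, and this fragment joins the DNA-binding protein RBPJ to switch on target genes. Hes and Hey genes encode repressors of proneural genes such as Neurog2, and in the developing nervous system this keeps progenitors from becoming neurons. Hes1 and Hes5 are both repressors of this kind, but Hes1 can also be driven without Notch, whereas Hes5 is widely read as a Notch target in neural progenitors.

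Promoters are shown for the 2 members whose windows hold the RBPJ motif, because both genes differed widely between the states. Windows from 250 bases before to 50 bases after the start site were taken from RefSeq on GRCm38.p6, which had 9 windows for 8 of the 10 members (none for Hes1 or Hey1, and 2 for Dll1). The motif searched was TTCCCAC on either strand, whose reverse complement is GTGGGAA. The first sequence runs along the plus strand at chr4:154960673-154960932 and the second along the minus strand at chr10:30842774-30843033, each 5′ to 3′ from 250 bases before the start site to 10 bases after it, with motif matches in capitals.
Hes5: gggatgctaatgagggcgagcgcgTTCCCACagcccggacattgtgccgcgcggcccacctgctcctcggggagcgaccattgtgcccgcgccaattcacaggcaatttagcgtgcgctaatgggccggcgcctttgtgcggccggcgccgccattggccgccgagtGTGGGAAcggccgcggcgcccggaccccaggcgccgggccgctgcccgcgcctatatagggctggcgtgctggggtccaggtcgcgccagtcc
Hey2: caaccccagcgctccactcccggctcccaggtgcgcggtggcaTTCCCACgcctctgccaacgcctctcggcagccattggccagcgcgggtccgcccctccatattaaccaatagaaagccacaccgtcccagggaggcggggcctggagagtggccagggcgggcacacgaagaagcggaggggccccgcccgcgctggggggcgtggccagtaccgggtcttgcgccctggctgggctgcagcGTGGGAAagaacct
Hes5 held 1 match on each strand, beginning 226 and 83 bases upstream of the start site. Hey2 also held 1 on each strand, beginning 207 and 4 bases upstream, the nearer one running across the start site. The other 7 member windows held none. Over all 32851 promoter windows, 2097 (6.38%) held a match and 33 (0.10%) held matches on both strands. The N box CACNAG, a site for Hes repressors that can share the letters CAC with the first motif, was in 42.5% of all windows and in neither Hes5 nor Hey2. A match describes the letters in the window and shows no binding.

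Differentiated cells carried more transcript of all 3 receptors, of both Delta ligands and of Hes5, Hey1 and Hey2, and less of Jag1 and Hes1. In edgeR's quasi-likelihood test, 8 of the 10 members were higher in D2 and 2 were lower at an adjusted p under 0.05. Hey2, among the 8, passed the count filter only through D2, where it was high, so neither its call nor its size adds support of its own. Over the 13216 genes tested, 40.0% were called higher and 39.8% lower, so a call alone is the rule in this comparison and the sizes carry more. The members' median log2 fold change, with Hey2 counted in, was 2.0, against 0.0015 over all genes tested. Among all genes tested, 1.5% had a larger absolute change than Dll3 and 1.70% than Hes5. The same share was 5.52% for Notch3, 10.2% for Dll1 and 13.5% for Hey1, and between 21.0% and 27.7% for Notch2, Hes1, Jag1 and Notch1. For none of the 10 genes did the TPM (a level scaled for transcript length and to one total per library) of the 3 D2 libraries overlap that of the 3 NSC libraries. The share of all genes tested without overlap was not counted, so this does not set the members apart.

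**Figure D1:**
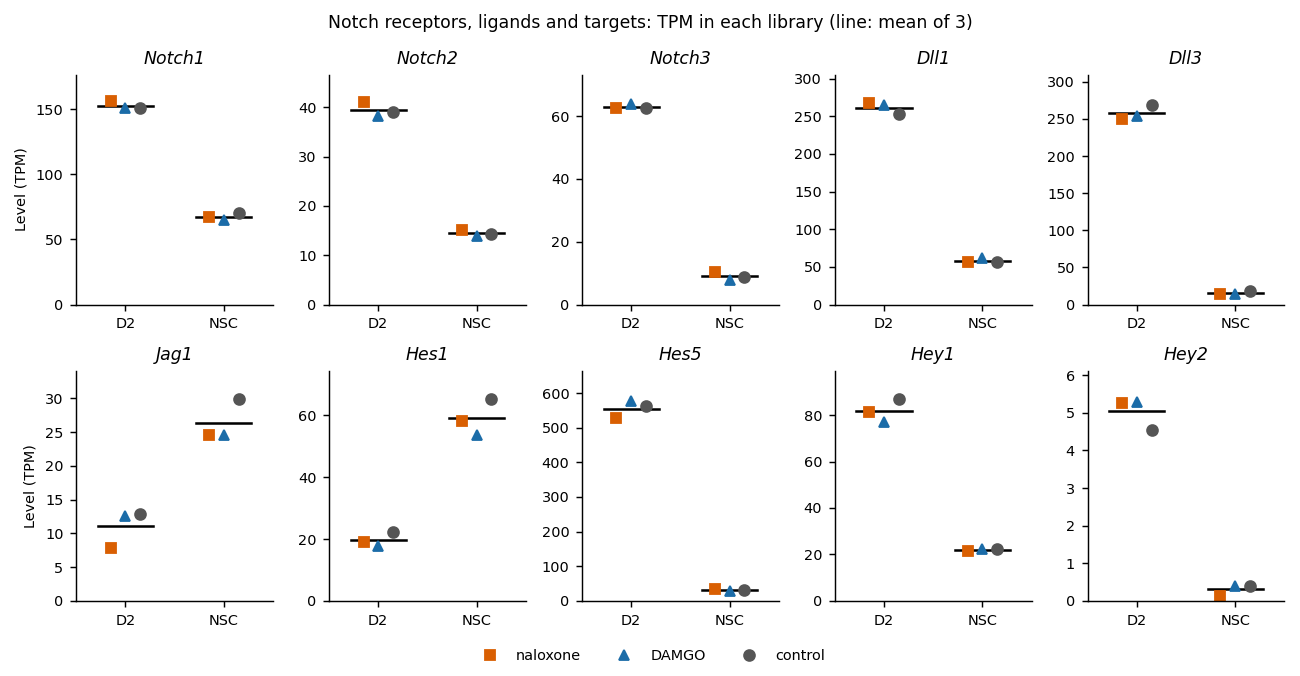
Level in TPM of each of the 10 genes in each library, with D2 left of NSC, symbols for naloxone, DAMGO and control, and a line at the mean of 3 libraries. The D2 points lie above the NSC points for 8 genes and below them for Jag1 and Hes1.

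Among the receptors Notch3 changed most. Notch1 (chromosome 2, 26457903 to 26516663, mm10), the main receptor of neural progenitors, had 156, 151 and 151 TPM in D2 with naloxone, DAMGO and control, against 66.9, 65.0 and 70.6 TPM in NSC in the same order. The D2 libraries were all more than 2-fold above the NSC libraries, and the states were far apart relative to their spread. The means were 152.7 ± 2.91 TPM in D2 and 67.5 ± 2.87 TPM in NSC (SD, n = 3 each). Notch1 rose by a log2 fold change of 1.17 (SE 0.04, edgeR adjusted p = 2.19e-10), the smallest rise of the 8. Notch2 (chromosome 3, 98013527 to 98150361), a close relative known for holding neural stem cells in quiescence in the adult mouse brain, had 41.0, 38.1 and 39.1 TPM in D2, against 15.2, 13.95 and 14.4 TPM in NSC. The log2 fold change of Notch2 was 1.43 (SE 0.05, edgeR adjusted p = 2.00e-10).

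Notch3 (chromosome 17, 32120820 to 32166852), known best from the mural cells of vessels and also present in neural progenitors, had 62.4, 63.8 and 62.6 TPM in D2, against 10.5, 7.84 and 8.72 TPM in NSC. The 3 D2 values were almost level, while NSC with naloxone lay above the other two NSC libraries. Its log2 fold change was 2.79 (SE 0.08, edgeR adjusted p = 2.74e-11), and the difference between the states within a ligand condition ran from 2.54 under naloxone to 3.02 under DAMGO on the log2 CPM scale. The summed level of markers of mural cells and fibroblasts, fixed as a list of 10, was also higher in D2. It was 43.2 to 48.8 CPM in D2 and 3.31 to 7.32 CPM in NSC. Of the 5 markers that could be tested 4 rose and none fell, where 40.0% of all genes tested were called higher and 39.8% lower. Pdgfrb and Acta2 passed the count filter only through D2, where they were high, so their calls add no support of their own. Pdgfrb stood at 7.65 to 8.62 CPM in D2 and at 0 to 0.148 CPM in NSC, and the pericyte genes Rgs5 and Kcnj8 had 3 and 1 counts in D2 as a whole. The part of such cells in the Notch3 result was not tested. The 3 receptors together summed to 255.0 ± 3.86 TPM in D2 and 91.0 ± 3.74 TPM in NSC. Notch1 made up 59.9% of that sum in D2 and 74.2% in NSC, Notch2 15.5% in D2 and 16.0% in NSC, and Notch3 24.7% in D2 and 9.89% in NSC.

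The Delta ligands rose and the Jagged ligand fell. Dll1 (chromosome 17, 15367354 to 15376872), a ligand that activates Notch in neighbouring progenitors, had 267, 265 and 253 TPM in D2 with naloxone, DAMGO and control, against 57.2, 61.3 and 57.0 TPM in NSC. Its log2 fold change was 2.15 (SE 0.05, edgeR adjusted p = 6.33e-12). Dll3 (chromosome 7, 28293553 to 28302238), a divergent Delta protein that acts within its own cell and is known as an inhibitor of Notch signalling, had 249, 254 and 269 TPM in D2, against 14.6, 14.9 and 18.6 TPM in NSC. Dll3 thus reached the level of Dll1 in D2, where their ranges overlapped, and lay well under it in NSC. It had the largest log2 fold change of the 10 members, 4.19 (SE 0.06, edgeR adjusted p = 2.53e-13), from 7771 expected counts over the 3 D2 libraries and 511 over the 3 NSC libraries. The abundance-weighted transcript length that RSEM reports for Dll3 was 2448 to 2461 bases in D2 and 2028 to 2249 bases in NSC, without overlap, and depends on which of its 3 transcripts the reads were assigned to.

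Jag1 (chromosome 2, 137081456 to 137116644), a ligand of the other class that also activates Notch, had 7.77, 12.5 and 12.9 TPM in D2 with naloxone, DAMGO and control, against 24.6, 24.5 and 29.9 TPM in NSC. The D2 library with naloxone was the lowest of all. Jag1 fell by 1.24 on the log2 scale (SE 0.09, edgeR adjusted p = 7.06e-08). GENCODE M21 lists 2 transcripts of Jag1, a coding one of 5612 bases and one of 1463 bases with a retained intron, and the reported mean lengths imply how the estimate was divided between them. The implied share of the retained-intron form was 0%, 30.6% and 28.5% in D2 and 16.6%, 17.6% and 35.7% in NSC, with no order by state. This leaves the coding form at 7.77, 8.70 and 9.19 TPM in D2, against 20.5, 20.2 and 19.2 TPM in NSC. On the coding form alone the states did not overlap either (8.55 ± 0.723 TPM in D2 and 19.96 ± 0.681 TPM in NSC, SD, n = 3 each), and the SD within each state was smaller. These shares assume that the authors' annotation held the same 2 transcripts. The 3 ligands together summed to 530 ± 5.25 TPM in D2 and 100.8 ± 4.52 TPM in NSC. Jag1 made up 2.08% of that sum in D2 and 26.1% in NSC, Dll3 48.5% in D2 and 15.9% in NSC, and Dll1 49.4% in D2 and 58.1% in NSC.

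Of the targets, Hes5, Hey1 and Hey2 rose and Hes1 fell. Hey1 (chromosome 3, 8663359 to 8667256), a repressor of the Hairy family linked to the receptor fragment and RBPJ in many tissues, had 81.3, 76.9 and 86.7 TPM in D2, against 21.5, 22.3 and 22.3 TPM in NSC. Its log2 fold change was 1.84 (SE 0.07, edgeR adjusted p = 1.83e-10). Hey2 (chromosome 10, 30832359 to 30842801), its close relative known best from heart and vessels, was the least abundant member, at 5.27, 5.30 and 4.54 TPM in D2 and 0.13, 0.39 and 0.41 TPM in NSC. It had 157 counts over the D2 libraries and 11 over the NSC libraries, of which NSC with naloxone held 2. The ratio of these counts per library size was 17.2 (exact binomial 95% interval 9.37 to 35.2, counting error only). The fitted log2 fold change of Hey2 was 4.04 (SE 0.37, edgeR adjusted p = 6.58e-07), but 2.21 in limma on log2(TPM + 1) and 3.73 on log2(TPM + 0.1). It ran from 3.58 to 4.42 without one library. Hey2 entered the edgeR test only through its D2 counts, so this p-value adds no support of its own. The summed level of the mural and fibroblast markers given beside Notch3, and Pdgfrb among them, were higher in D2 along with Hey2 too. The part of such cells in the Hey2 result was not tested.

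**Figure D2:**
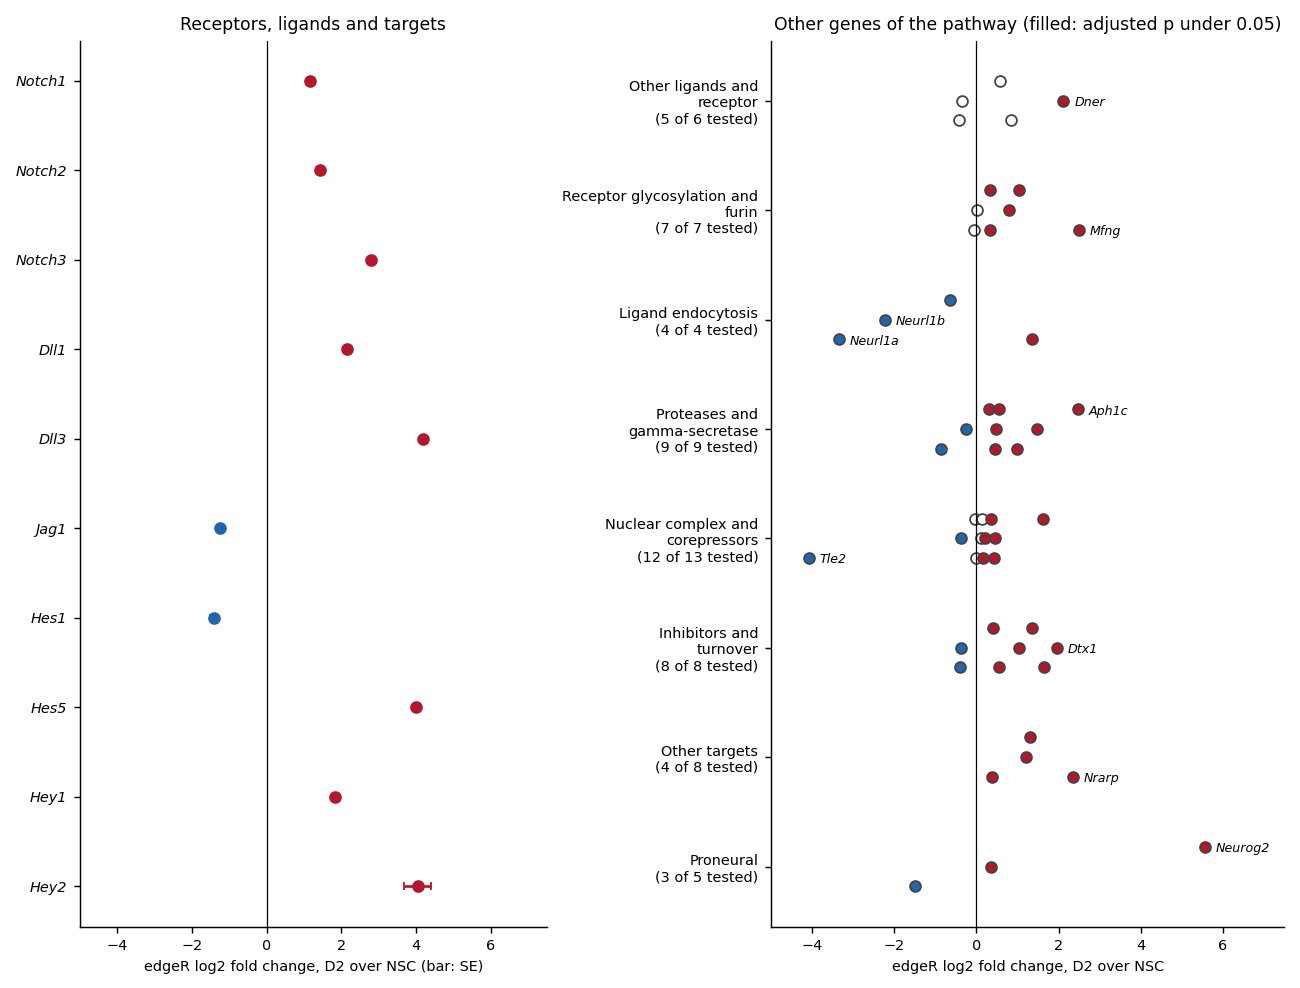
edgeR log2 fold change of D2 over NSC for the 10 members with SE bars (left) and for the other genes of the pathway by list (right, filled where the adjusted p was under 0.05, red higher and blue lower). Jag1 and Hes1 are the members left of 0, and Tle2 at -4.09 and Neurog2 at 5.57 are the outermost points among the other genes.

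Hes1 and Hes5 exchanged places. Hes5 (chromosome 4, 154960923 to 154962371) had 526.5, 576 and 561 TPM in D2 with naloxone, DAMGO and control, against 35.3, 29.9 and 32.2 TPM in NSC. Hes1 (chromosome 16, 30064384 to 30067796) had 19.1, 17.8 and 22.2 TPM in D2, against 58.4, 53.7 and 65.3 TPM in NSC. Every D2 library held far more Hes5 than Hes1, and every NSC library held more Hes1 than Hes5. Hes5 rose by a log2 fold change of 4.01 (SE 0.07, edgeR adjusted p = 5.50e-13), and Hes1 fell by 1.41 on the log2 scale (SE 0.09, edgeR adjusted p = 3.33e-08).

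The ratio of Hes5 to Hes1, in TPM within one library and so free of the scaling between libraries, was 27.6, 32.4 and 25.3 in D2 and 0.604, 0.556 and 0.493 in NSC. The mean log2 ratio was 4.82 ± 0.18 in D2 and -0.86 ± 0.15 in NSC (SD, n = 3 each). The difference of 5.69 corresponds to a 51.5-fold shift. An exact two-sided permutation test over the 6 libraries gave p = 0.1, the smallest that its 20 arrangements allow, so this test cannot reach 0.05 with 3 libraries against 3. Of the transcripts of the pair, Hes1 made up 3.43 ± 0.406% in D2 and 64.5 ± 2.33% in NSC. The pair together summed to 574 ± 25.4 TPM in D2 and 91.6 ± 7.16 TPM in NSC, so that the fall of Hes1 removed less transcript than Hes5 added.

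The counts behind Hes1 are lower than those behind Hes5 in D2. Hes1 had 338 expected counts over the 3 D2 libraries and 1082 over the 3 NSC libraries, a ratio per library size of 0.377 (exact binomial 95% interval 0.333 to 0.426). Hes5 had 7278 in D2 and 540 in NSC, a ratio of 16.3 (14.9 to 17.8). The mean transcript length reported for Hes1 was 1384 to 1468 bases in D2 and 1226 to 1290 bases in NSC, without overlap, which enters its TPM but not its counts. On expected counts the log2 difference of the ratio was 5.44. Hes5 overlaps the antisense gene Gm20421, and the library kit does not mark strand, so reads of both cannot be told apart where they overlap. Gm20421 was assigned 3.93% to 6.32% of the counts of both in D2 and 3.40% to 6.87% in NSC, and adding them to Hes5 left the difference at 5.43. Notch1, Dll1 and Notch3 also overlap genes of the opposite strand, the highest of which, Gm13568 at Notch1, was assigned 64.1 to 88.6 counts in D2 and 19.9 to 46.3 in NSC.

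**Figure D3:**
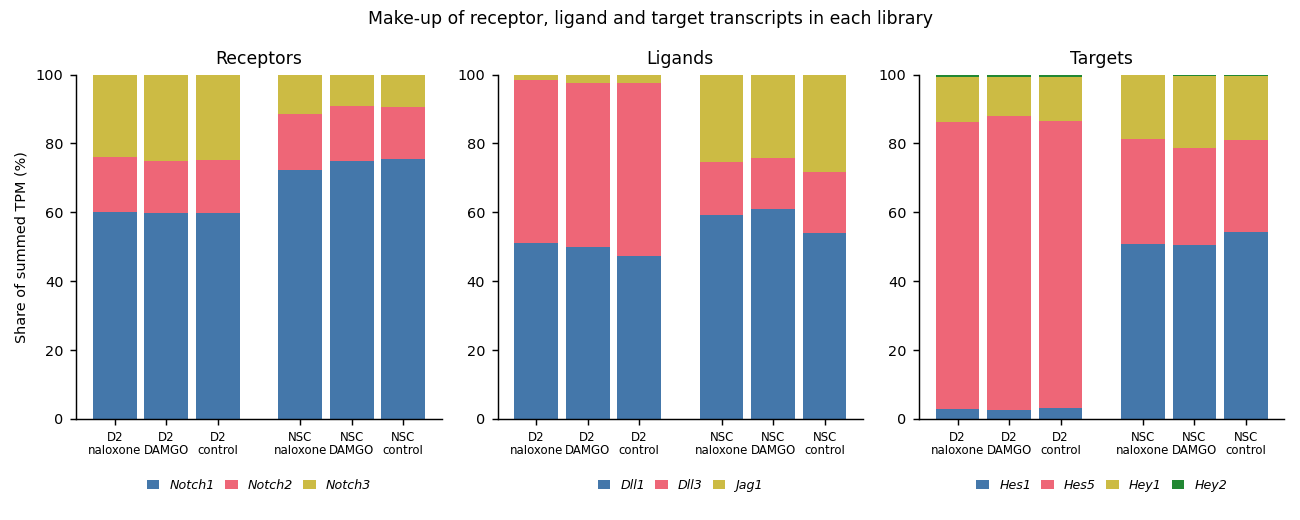
Share of the summed TPM of the receptors, ligands and targets held by each gene in each library, with the 3 D2 libraries left of the 3 NSC libraries. Hes5 fills 83.2 to 85.2% of the target transcripts in D2 and 26.8 to 30.6% in NSC, and Dll3 fills 47.6 to 50.3% of the ligand transcripts in D2 and 14.8 to 17.6% in NSC.

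The order of the 10 levels differed between the states. In D2, in TPM, it ran Hes5, Dll1, Dll3, Notch1, Hey1, Notch3, Notch2, Hes1, Jag1 and Hey2, and Dll1 and Dll3 were the only neighbours whose ranges overlapped. In NSC it ran Notch1, Hes1, Dll1, Hes5, Jag1, Hey1, Dll3, Notch2, Notch3 and Hey2. There the ranges of Notch1 and Hes1, of Hes1 and Dll1, and of Dll3 and Notch2 overlapped, so these neighbours could not be ordered. Hes1 thus stood eighth in D2 and among the highest 3 in NSC. The 4 targets together summed to 661 ± 25.0 TPM in D2 and 114 ± 7.03 TPM in NSC.

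The other genes that modify, cut and read Notch went in both directions. Of 55 genes in 7 lists of the pathway, 49 could be tested, and 30 of these rose and 9 fell, with a median log2 fold change of 0.40. Over all genes tested, 40.0% were called higher and 39.8% lower, with a median of 0.0015. Of the other ligands and receptor, 1 of 5 tested passed: Dner, a neuronal transmembrane protein related to the Delta ligands, stood at 365 ± 7.54 CPM in D2 and 84.1 ± 0.888 CPM in NSC, a log2 fold change of 2.12. Notch4, Dll4, Jag2 and Dlk2 did not pass the test, with log2 fold changes of -0.42 to 0.84 and SEs of 0.28 to 0.41. Of the genes for receptor glycosylation and furin, 5 of 7 rose and none fell. Mfng, one of the Fringe enzymes that set which ligands a receptor answers to, had a log2 fold change of 2.49 (23.3 ± 1.77 CPM in D2 and 4.20 ± 0.931 CPM in NSC), and Furin, the protease that cleaves the receptor on its way to the surface, 1.03. Lfng, the Fringe gene best known from somite formation, had a log2 fold change of -0.07 (SE 0.05, edgeR adjusted p = 0.232).

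Genes for ligand endocytosis, the step that lets a ligand pull on its receptor, fell in 3 of 4 cases and rose in 1. Neurl1a, a ubiquitin ligase of the Neuralized family, stood at 4.49 ± 1.38 CPM in D2 and 45.1 ± 0.715 CPM in NSC (log2 fold change -3.35). Its relative Neurl1b fell by 2.23 on the log2 scale. Mib1, the ligase chiefly tied to ligand activity in the mouse, fell by 0.65, and Mib2 had a log2 fold change of 1.35.

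Of the proteases and γ-secretase genes, 7 of 9 rose and 2 fell. Psen2, a catalytic subunit of γ-secretase, had a log2 fold change of 1.47 (8.36 ± 0.982 CPM in D2 and 3.02 ± 0.422 CPM in NSC). Aph1b, another subunit, had one of 0.99, but it shares reads with its near copy Aph1c and is uncertain. The 2 that fell were proteases that can cut the receptor: Adam10 fell by 0.87 on the log2 scale (139.0 ± 7.42 CPM in D2 and 253.6 ± 6.49 CPM in NSC) and Adam17 by 0.26.

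Of the nuclear complex and its corepressors, 6 of 12 tested rose and 2 fell. Rbpj itself, the DNA-binding partner of the Notch receptors, had a log2 fold change of -0.04 (SE 0.05, edgeR adjusted p = 0.530). The coactivator Maml1 had one of 0.45. The Groucho-type corepressors, which Hes proteins recruit, moved apart: Tle1 had a log2 fold change of 1.63 (124.9 ± 6.80 CPM in D2 and 40.3 ± 1.54 CPM in NSC), and Tle2 fell by 4.09 (4.5 ± 0.778 CPM in D2 and 77.1 ± 1.98 CPM in NSC).

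Among inhibitors and turnover genes, 6 of 8 rose and 2 fell. Dtx1, a ubiquitin ligase that binds the receptor and is itself a Notch target in some cells, had a log2 fold change of 1.96, and Numbl, a relative of the inhibitor Numb, 1.64. The ligases Itch and Fbxw7, which mark the receptor for degradation, fell by 0.41 and 0.37. All 4 tested genes of the list of other targets rose, though whether each of them answers to Notch in these cells was not tested. Nrarp, a target that feeds back on the Notch complex, had a log2 fold change of 2.35 (229 ± 8.53 CPM in D2 and 44.7 ± 2.06 CPM in NSC), Hes6 1.31, Sox9 1.20 and Id3 0.37. Hes6 is known to counteract Hes1, Nrarp to limit Notch signalling, Sox9 to serve glial progenitors and Id3 to block proneural proteins. Hes2, Hes3, Hes7 and Heyl had too few counts to test.

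Proneural genes, which the Hes repressors hold down, were on both sides. Neurog2 stood at 22.1 ± 2.80 CPM in D2 and 0.440 ± 0.0975 CPM in NSC. Its log2 fold change was 5.57 (SE 0.21, edgeR adjusted p = 1.73e-10), from 604 counts over the D2 libraries and 15 over the NSC libraries. Like Hey2, Neurog2 passed the count filter only through D2, where it was high, so this p-value adds no support of its own. Neurod1, a later neuronal factor, fell by 1.48 (SE 0.28) from low levels, at 1.53 ± 0.214 CPM in D2 and 4.35 ± 0.784 CPM in NSC. Neurog1 had 1 count, in the NSC control, and Atoh1 had 0 in all 6 libraries.

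The states also differed in markers of cell types in which these genes are used. The summed level of 8 astrocyte markers was 5041 to 5279 CPM in D2 and 938 to 984 CPM in NSC, and all 8 rose. The 9 markers of the oligodendrocyte lineage summed to 5825 to 6583 CPM in D2 and 3200 to 3329 CPM in NSC (7 of 8 tested rose and 1 fell), and the 7 neuronal markers to 1237 to 1377 CPM in D2 and 1132 to 1188 CPM in NSC (3 of 6 rose and 2 fell). The 6 neural stem cell markers summed to 5176 to 5530 CPM in D2 and 6749 to 6867 CPM in NSC (4 rose and 2 fell). Endothelial markers summed to under 5 CPM in every library, with Cldn5 at 0, and microglial markers to at most 0.294 CPM, with Cx3cr1 and C1qa at 0. Olig1 and Olig2 held most of the oligodendrocyte sum. Olig1 stood at 3561 to 3983 CPM in D2 and 2130 to 2222 CPM in NSC, and Olig2 at 1050 to 1213 CPM in D2 and 909 to 963 CPM in NSC. Cspg4 was lower in D2 (88.8 to 91.6 CPM, against 122.6 to 135.5 CPM). Gfap, Sox10 and Mbp passed the count filter only through D2, where they were high, so their calls add no support of their own. Map2 held most of the neuronal sum, at 1033 to 1185 CPM in D2 and 1079 to 1131 CPM in NSC. Beside it, Tubb3 stood at 99.0 to 107.3 CPM in D2 and 10.3 to 13.0 CPM in NSC. Dcx stood at 64.6 to 77.5 CPM in D2 and 8.73 to 10.7 CPM in NSC, while Syt1 was lower in D2 (20.9 to 21.4 CPM, against 24.6 to 28.7 CPM). Hes5 and Dll3 thus rose together with the summed levels of the 2 glial lists, of which 1 oligodendrocyte marker fell. The single neuronal markers went in both directions. The part of the cell mixture in the members' changes was not tested.

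The genes most like Hes1 and Hes5 across the 6 libraries were found among 8041 genes of at least 20 CPM, by the root mean square distance between centred log2 CPM values. For Hes1 they were Ppfibp1 (distance 0.050), Gstcd (0.051) and Fbl (0.061), and their log2 fold changes were -1.36, -1.49 and -1.42. For Hes5 they included Pygb (0.052) and Cst3 (0.084), with log2 fold changes of 4.03 and 3.85. With 2 states so far apart, the distance mainly finds genes with the same difference between the states.

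No member passed the test for naloxone or DAMGO. The series was set up to culture and differentiate the cells with and without these ligands. Over both states, edgeR called 0 of the 10 members for naloxone against control, DAMGO against control or naloxone against DAMGO, with 0 at an unadjusted p under 0.05, and DESeq2 and limma also called 0. The background was low as well: 0.0151% of the 13216 genes were called for naloxone, 0.0151% for DAMGO and 0.0303% for naloxone against DAMGO. At an unadjusted edgeR p under 0.05 there were 293 of the 13216 for naloxone, 317 for DAMGO and 280 between them. With so few, 0 of 10 members says little about the members. Members' log2 fold changes ran from -0.16 to 0.09 for naloxone, from -0.21 to 0.18 for DAMGO and from -0.22 to 0.11 between them, with SEs of 0.05 to 0.39. The naloxone and DAMGO comparisons share the control libraries. In TPM, Hes1 was highest in the control of both states. Its edgeR log2 fold change was -0.13 (SE 0.11) for naloxone and -0.21 (SE 0.11) for DAMGO, with adjusted p = 1.00 for naloxone and 0.9999 for DAMGO. For Hes5 the values were -0.09 (SE 0.08) for naloxone and -0.01 (SE 0.08) for DAMGO.

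Within one state a ligand comparison rests on 2 libraries and has no replicate check. On normalised counts with a prior count of 2, Hey2 alone stood past 1.5-fold, in NSC, with 2 counts under naloxone against 5 in the control and 4 under DAMGO. On log2(TPM + 1) it did not, at -0.32 against the control. There Jag1 in D2 was the member past 1.5-fold instead, at -0.66 for naloxone against control and -0.63 against DAMGO, where its counts gave -0.41 and -0.35. For Hey2 in NSC the count ratio of naloxone to control was 0.313 (exact binomial 95% interval 0.0298 to 1.91). A difference in Hey2 was thus not detectable at this depth. For naloxone over control, 6.69% of all genes tested passed 1.5-fold in D2 and 3.78% in NSC. For DAMGO over control it was 6.76% in D2 and 4.43% in NSC, and for naloxone over DAMGO 5.77% in D2 and 4.25% in NSC.

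Smaller ratios stood outside counting error in the D2 library with naloxone. Against the D2 control, the ratio of counts per library size was 0.753 for Jag1 (95% interval 0.616 to 0.918), 0.898 for Hes5 (0.848 to 0.950), 0.912 for Dll3 (0.863 to 0.963) and 0.948 for Dll1 (0.900 to 0.999). Against DAMGO in D2, naloxone stood at 0.783 for Jag1 (0.636 to 0.962), 0.903 for Hes5 (0.851 to 0.958), 0.937 for Dll1 (0.888 to 0.988) and 1.04 for Notch1 (1.00 to 1.08). For Dll1 the direction turned with the unit, since its TPM in D2 was 267 under naloxone, against 265 under DAMGO and 253 in the control. In NSC, Notch3 was at 1.20 under naloxone against control (1.05 to 1.38) and at 1.34 against DAMGO (1.15 to 1.56). These intervals cover counting error only. Libraries of one state differed by more than counting error over all genes, with chi-square values per degree of freedom of 3.80 to 4.02 between D2 libraries and 1.58 to 1.85 between NSC libraries.

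**Figure D4:**
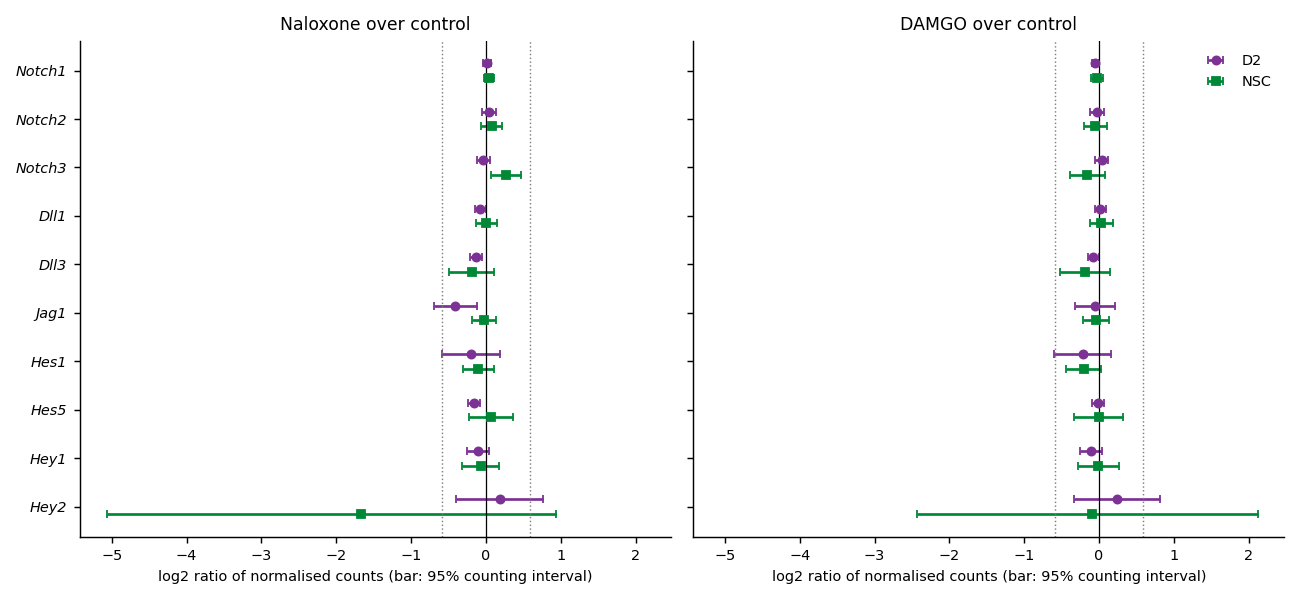
Log2 ratio of normalised counts within a state for naloxone over control (left) and DAMGO over control (right), with exact binomial 95% intervals for counting error, D2 above NSC for each gene, and dotted lines at 1.5-fold. Intervals that clear 0 are those of Jag1, Hes5, Dll3 and Dll1 in D2 and Notch3 in NSC, all under naloxone, and Hey2 in NSC rests on 2 to 5 counts.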

How the data were processed

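Trizol was used to harvest total RNA, and sequencing libraries were built with a TruSeq RNA kit, as the labels' protocols have it; this kit is not a stranded one. For every library the authors deposited a gene table holding expected counts, TPM and FPKM. Bowtie, RSEM and the build mm10 are named in the submitters' processing notes. Their versions, the annotation and any filter on reads are not given in these sources. The deposited expected counts divide reads that map to several genes, TPM is scaled to one total per library, and FPKM, also deposited by the authors, served as an alternative only. Symbols and coordinates come from GENCODE M21 (28756 of 29267 identifiers matched).

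Expected counts were rounded to whole numbers (library totals shifted by 46.1 or less). The 13216 genes with a mean count of 10 or more entered edgeR 4.0.16 in R 4.3.3, with TMM scaling and the quasi-likelihood test. The model added state and ligand, leaving 2 residual degrees of freedom. Benjamini-Hochberg adjustment ran over all genes tested, with a threshold of 0.05. DESeq2 1.42.0 and limma 3.58.1 on log2(TPM + pseudocount) were alternatives, as were other scalings, no filter, state alone and leaving out libraries. Ratios within a state used a prior count of 2 and a size rule of 1.5-fold. CPM values are TMM-normalised. A count of 0 allows up to 3 counts, or 0.221 to 0.356 CPM per library; intervals and floors cover counting error only. Code was tested on simulated data. Adding the counts of the antisense gene to Hes5 was chosen after seeing the data. Named genes are all members, from each pathway list up to 2 called rises and 2 called falls of at least 5 CPM, proneural genes, and the 3 nearest patterns of Hes1 and Hes5; a few genes that this rule names are not reported here; Rbpj, Lfng, Mib1, Aph1c, Sox9, Id3, Neurod1, Atoh1 and the marker genes were named after their values were seen. The members and lists were chosen with earlier results of these data known.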

Additional observations from a re-analysis of the deposited data

How the results depend on the processing

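All 10 members kept their direction and call in the state comparison under each of 16 alternatives (scalings, no filter, DESeq2, limma, state alone, and without each library or ligand pair), with a highest adjusted p of 0.00393, for Jag1. The ratio of Hes5 to Hes1 differed between the states by 5.43 to 5.69 on the log2 scale in other units, and by 5.59 to 5.77 without one library, where 10 arrangements allow no p under 0.2. No member was called for a ligand under any alternative; 30 ligand changes of members switched sign and 330 did not, all of them uncalled. Of the ratios within a state, 7 moved outside their counting interval with TPM in place of counts and 53 did not, and with a prior count of 0.5 all 60 stayed inside. The few genes called for ligands over the whole table moved more. For naloxone (2 genes) there were 0 with DESeq2 size factors, 45 with no filter, 1 in DESeq2, 0 in limma with either pseudocount, and 1 to 74 without one library. For DAMGO (2 genes) there were 83 with no filter, 0 in DESeq2, 0 in limma, and 4 to 123 without one library. For naloxone against DAMGO (4 genes) there were 1 with DESeq2 size factors, 1 with library totals, 53 with no filter, 0 in DESeq2, 0 in limma, and 5 to 37 without one library. By library left out, the naloxone count was 74 without the NSC control, 39 without NSC naloxone, 11 without NSC DAMGO, 26 without the D2 control, 9 without D2 DAMGO and 1 without D2 naloxone. In the same order the DAMGO count was 123, 25, 46, 16, 4 and 4, and that of naloxone against DAMGO was 33, 20, 37, 26, 5 and 5. The cause was not tested. The ligand term already sets D2 against NSC within each ligand condition, and without it 10710 genes were called for state, against 10543 with it. No paired analysis was possible because the labels give no replicate numbers, so beyond the shared ligand nothing links libraries across groups. Depth limits Hey2 in NSC, at 2 to 5 counts, and the ligand ratios of Hes1 and Jag1 in D2, at 99 to 264 counts.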
